A study of Mus musculus with 12 samples.

Results

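The genes described here were 10 genes of fibroblasts and the extracellular matrix, chosen by symbol among the 54532 genes counted in each colon library. They were the PDGF receptors Pdgfra and Pdgfrb, the surface proteins Pdpn, Fap, Thy1 and Cd34, and the secreted matrix proteins Postn, Fn1, Tnc and Sparc. All 10 passed the filter on low counts, as did 17658 genes in all. RNA was sequenced from the colon of male C57BL/6 mice, which were 6 weeks old on arrival, in 4 groups with 3 libraries each. The Con group received no DSS (dextran sulfate sodium, a sulfated polysaccharide that injures the colon epithelium and serves as a mouse model of ulcerative colitis). The DSS group drank DSS at 3% (w/v) for 5 days. The UA+DSS group had the same DSS plus ursolic acid (UA), a triterpenoid of plants gavaged at 200 mg/kg and begun 1 day before DSS. The DSS+UA group had the same DSS and daily dose of UA, begun 3 days after the start of DSS. The study states fewer days of UA in DSS+UA than in UA+DSS, so start and number of doses differ together. The labels call Con untreated, whereas the methods state that mice without UA were gavaged with the vehicle. No group received UA without DSS. The study asked whether UA given early or late limits the colitis, and here the comparisons ask how far the fibroblast and matrix genes follow.

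Fibroblasts lie beneath the colon epithelium and in the submucosa, where they build the extracellular matrix and send growth signals to the crypts. PDGF ligands from the epithelium and other cells act on them through the receptors Pdgfra and Pdgfrb. In inflamed or wounded tissue fibroblasts are known to divide and to deposit provisional matrix such as fibronectin and tenascin-C. None of the 10 genes belongs to fibroblasts alone. Pdgfrb is also expressed by pericytes, Pdpn by lymphatic endothelium and some macrophages, Thy1 by T cells and neurons, and Cd34 by blood endothelium, so the markers of those cells are given beside each. In RNA of whole tissue, fewer cells of a type and less RNA per cell cannot be told apart.

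The libraries held 15566216 to 19498383 counts. Levels are given as CPM (the counts of a gene relative to the total of its library, with TMM factors of 0.871 to 1.09), and counts of the 10 genes ran from 21 for Fap to 18877 for Sparc. All comparisons came from 1 edgeR quasi-likelihood fit that held the 12 libraries, and a gene was called raised or lowered when its Benjamini-Hochberg adjusted p over all 17658 genes was under 0.05. Libraries carry the name of the group and the replicate number, so that DSS 2 is replicate 2 of the DSS group. Of the distinct stretches of 50 bases in the transcripts of each of the 10 genes, at most 4.93% (Pdgfra) were shared with other genes. Pdgfra, Cd34, Fn1 and Tnc overlap antisense genes over at most 4.55% of their exon length, and without a stated strand setting reads of such partners cannot be told apart. How the 3 tissues of a group relate to single animals is not given in the labels, and p-values measure the spread between these libraries, which may be technical. The mitochondrial share of counts was 4.46% to 9.53% in Con, 1.23% to 2.93% in DSS, 4.21% to 5.58% in UA+DSS and 2.48% to 3.03% in DSS+UA, and its part in the results was not tested.

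The libraries also differed in the genes that mark position along the colon. A position score was taken as the mean log2 CPM of 5 distal Hox genes (Hoxb13, Hoxd10, Hoxd11, Hoxd12 and Hoxd13), used toward the rectum, less the mean of 6 proximal genes of the Hoxb cluster (Hoxb3 through Hoxb8), used toward the caecum. It was 0.37 to 3.10 in the DSS libraries. The score was -5.70 to -4.16 in the UA+DSS libraries and 4.11 to 5.06 in the DSS+UA libraries, so that neither UA group overlapped DSS. In Con it was 5.53, -3.03 and -1.83. Hoxb13, a marker of the distal colon, had 128 ± 76.4 CPM (SD, n = 3) in DSS, 4.54 ± 7.49 in UA+DSS and 413 ± 76.7 in DSS+UA. Treatment and position along the colon therefore cannot be told apart between a UA group and DSS, or between UA+DSS and Con or DSS+UA. Values with the score as a covariate are given beside those comparisons.

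Per kb of annotated exon, Sparc had the highest level of the 10 genes in every group. Its level was 65.8 ± 4.34 CPM per kb in Con, 209 ± 74.1 in DSS, 71.4 ± 33.0 in UA+DSS and 85.1 ± 34.9 in DSS+UA (mean ± SD, n = 3). Fap had the lowest in every group, at 0.967 CPM per kb in Con and 0.317 in DSS+UA. Postn stood next to Sparc in Con, UA+DSS and DSS+UA, with 37.3, 24.1 and 23.1 CPM per kb. In DSS its place was taken by Tnc (45.7 CPM per kb) and Fn1 (44.4 CPM per kb), and Postn followed at 34.3 CPM per kb. Pdpn stood above both PDGF receptors in DSS and DSS+UA on this scale, but between them in Con, with 5.49 CPM per kb against 6.57 for Pdgfra and 4.51 for Pdgfrb.

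**Figure D1:**
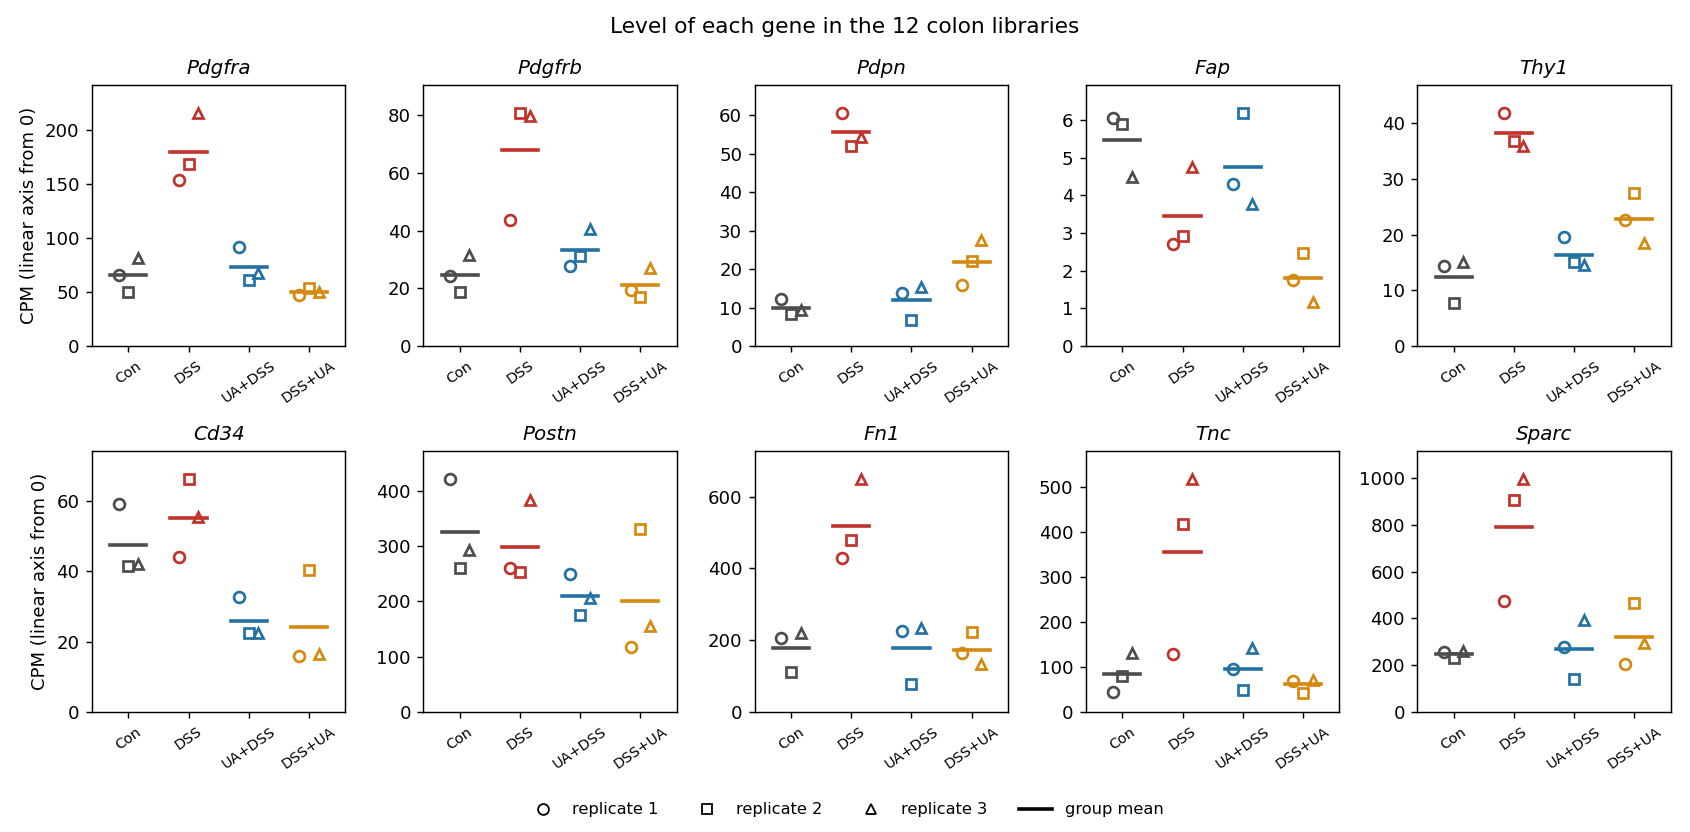
Level of each of the 10 genes in CPM (vertical axis, linear from 0) in the 12 libraries by group, with circles, squares and triangles for replicates 1, 2 and 3 and a line at the group mean. The 3 DSS libraries lie above all Con libraries for Pdgfra, Pdgfrb, Pdpn, Thy1, Fn1 and Sparc, while DSS 1 (129 CPM) lies below Con 3 (130 CPM) for Tnc.

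DSS against Con asks which of the genes differ in the injured colon. 7 of the 10 genes were raised in DSS and none was lowered, against 13.9% of all tested genes raised and 12.6% lowered. The raised genes were both PDGF receptors, Pdpn, Thy1, Fn1, Tnc and Sparc, with folds of 2.73 to 5.57, and Pdpn rose most. Fap, Cd34 and Postn did not pass the test. For 6 genes, the raised ones without Tnc, every DSS library was above every Con library, where 21.2% of tested genes were so placed. The median log2 fold change of the 10 genes was 1.5, beside -0.03 over all genes tested.

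Pdgfra, the receptor for PDGF-A and other PDGF chains that marks most gut fibroblasts and is highest in the telocytes under the epithelium, lies at chr5:75152292-75198215 on the plus strand (GRCm38). It had 65.8, 49.9 and 81.9 CPM in Con 1 to 3 and 154, 169 and 216 CPM in DSS 1 to 3. All DSS libraries were above all Con libraries, and the level rose 2.73-fold (log2 fold change 1.45, SE 0.22, edgeR adjusted p = 0.0025). Pdgfrb (chr18:61045150-61085061, plus strand), the receptor for PDGF-B, had 24.2, 18.6 and 31.4 CPM in Con and 43.5, 80.9 and 79.7 CPM in DSS. DSS 1 was the lowest DSS library for Pdgfrb but still above Con 3, and the level rose 2.75-fold (log2 fold change 1.46, SE 0.29, edgeR adjusted p = 0.00603). Both calls held without any single library and under every other setting run.

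None of the 4 genes for the ligands of these receptors passed the test upward and Pdgfa, the epithelial ligand of Pdgfra, was lowered from 58.9 ± 7.24 CPM in Con to 30.3 ± 5.24 in DSS (SD, n = 3, log2 fold change -0.96, edgeR adjusted p = 0.0205). Pdgfb had 11.3 ± 2.40 and 16.7 ± 3.68 CPM (adjusted p = 0.110) and Pdgfc 4.99 ± 0.977 and 7.46 ± 2.71 CPM (adjusted p = 0.161), and neither passed the test. Of 6 tested genes of pericytes and vascular mural cells, which share Pdgfrb, 3 were raised. They were the potassium channel gene Kcnj8 (13.8 ± 2.44 to 94.2 ± 20.2 CPM), its partner subunit Abcc9 and Mcam. The summed level of the mural list was 192 to 484 CPM in Con and 347 to 515 CPM in DSS, with none of its genes at 0 in either group, and its part in the Pdgfrb difference was not tested.

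Pdpn (chr4:143267431-143299564, minus strand) encodes podoplanin, a mucin-type glycoprotein of fibroblastic stroma and lymphatic endothelium that binds ezrin and moesin inside the cell. It had 12.3, 8.32 and 9.36 CPM in Con and 60.6, 51.9 and 54.5 CPM in DSS. The DSS libraries stood close together, far above Con, and the level rose 5.57-fold (log2 fold change 2.48, SE 0.31, edgeR adjusted p = 0.00133). In 6.52% of tested genes the change was larger in size. Of 7 tested partners of Pdpn, Cd34 and Thy1, 6 were raised, among them moesin (Msn, 63.3 ± 10.9 to 410 ± 302 CPM), P-selectin (Selp, 1.08 ± 0.181 to 51.8 ± 25.2 CPM) and the leukocyte integrin chain Itgam (5.30 ± 1.55 to 86.8 ± 94.8 CPM). Ezrin (Ezr) was the partner that did not pass the test (694 ± 195 to 665 ± 204 CPM, edgeR adjusted p = 0.884). Clec1b of the same list did not pass the filter on low counts. Beside Pdpn, 3 of 6 lymphatic endothelial genes were raised (Lyve1, Flt4 and Reln) and 8 of 9 macrophage genes. The lymphatic list summed to 53.1 to 87.5 CPM in Con and 77.4 to 306 CPM in DSS, and the macrophage list to 138 to 290 and 833 to 3137 CPM. Their part in the Pdpn difference was not tested.

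Thy1 (chr9:44043384-44048579, plus strand), a GPI-anchored glycoprotein of fibroblasts, T cells and neurons, had 14.4, 7.77 and 15.1 CPM in Con and 41.9, 36.8 and 35.9 CPM in DSS. Every DSS library was above every Con library, and the level rose 3.07-fold (log2 fold change 1.62, SE 0.25, edgeR adjusted p = 0.00286). T-cell genes were raised for 6 of 8, and the T-cell list summed to 19.2 to 30.6 CPM in Con and 38.6 to 118 CPM in DSS. In DSS 1 to 3 the T-cell sums were 88.0, 118 and 38.6 CPM, beside Thy1 levels of 41.9, 36.8 and 35.9 CPM. Of 8 genes of enteric neurons and glia 1 was raised (Tubb3). The part of these cells in the Thy1 difference was not tested.

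Cd34 (chr1:194938819-194961279, plus strand), a sialomucin of blood endothelium and adventitial fibroblasts, had 59.1, 41.4 and 42.0 CPM in Con and 44.0, 66.2 and 55.3 CPM in DSS. The groups overlapped and the difference did not pass the test (log2 fold change 0.21, SE 0.34, edgeR adjusted p = 0.663). In contrast, 5 of 8 blood endothelial genes were raised, among them Pecam1 (54.1 ± 9.26 to 120 ± 29.0 CPM), Vwf and Tie1, and the endothelial list summed to 203 to 242 CPM in Con and 308 to 496 CPM in DSS. Whether Cd34 differed from these genes in its change was not tested. Fap (chr2:62500943-62574075, minus strand), a serine protease of activated fibroblasts, had 6.05, 5.88 and 4.49 CPM in Con and 2.69, 2.91 and 4.75 CPM in DSS. These levels overlapped as well, with DSS 3 above Con 3, and the difference was downward without passing the test (log2 fold change -0.67, SE 0.35, edgeR adjusted p = 0.175). Fap was counted with 56 to 117 reads in these 6 libraries.

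The matrix genes moved unequally. Fn1 (chr1:71585520-71653200, minus strand), which encodes the adhesive glycoprotein fibronectin, had 207, 112 and 219 CPM in Con and 428, 479 and 650 CPM in DSS. All DSS libraries were higher and it rose 2.89-fold (log2 fold change 1.53, SE 0.41, edgeR adjusted p = 0.0197). Sparc (chr11:55394500-55423183, minus strand), a collagen-binding matricellular protein, had 258, 230 and 259 CPM in Con and 473, 908 and 997 CPM in DSS. Con libraries were nearly equal for Sparc, DSS 1 stood between them and the other DSS libraries, and the level rose 3.18-fold (log2 fold change 1.67, SE 0.41, edgeR adjusted p = 0.0139).

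Tnc (chr4:63959785-64047015, minus strand) encodes tenascin-C, an anti-adhesive glycoprotein of wounds. Its levels were 43.3, 80.2 and 130 CPM in Con and 129, 417 and 519 CPM in DSS. DSS 1 lay within the range of Con, and the group mean rose 4.19-fold (log2 fold change 2.07, SE 0.57, edgeR adjusted p = 0.0236). Postn (chr3:54361109-54391037, plus strand), the matricellular protein periostin, had 421, 261 and 292 CPM in Con and 260, 253 and 383 CPM in DSS. The groups overlapped and their means differed by less than the spread between libraries (log2 fold change -0.12, SE 0.35, edgeR adjusted p = 0.820).

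Of the 7 raised genes, Pdgfra, Pdgfrb, Pdpn, Thy1 and Sparc kept their calls under every other setting run, leaving out each library included. Fn1 lost its call without Con 2 (adjusted p = 0.0698) or DSS 3 (0.0505). Tnc lost it without Con 1 (0.0690), Con 2 (0.0750), DSS 2 (0.0600) or DSS 3 (0.0638), without the filter on low counts (0.0643) and in a fit of the DSS and Con libraries alone (0.0698). With the position score as a covariate the same 7 genes were called, from a log2 fold change of 1.45 for Pdgfra to 2.38 for Pdpn.

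**Figure D2:**
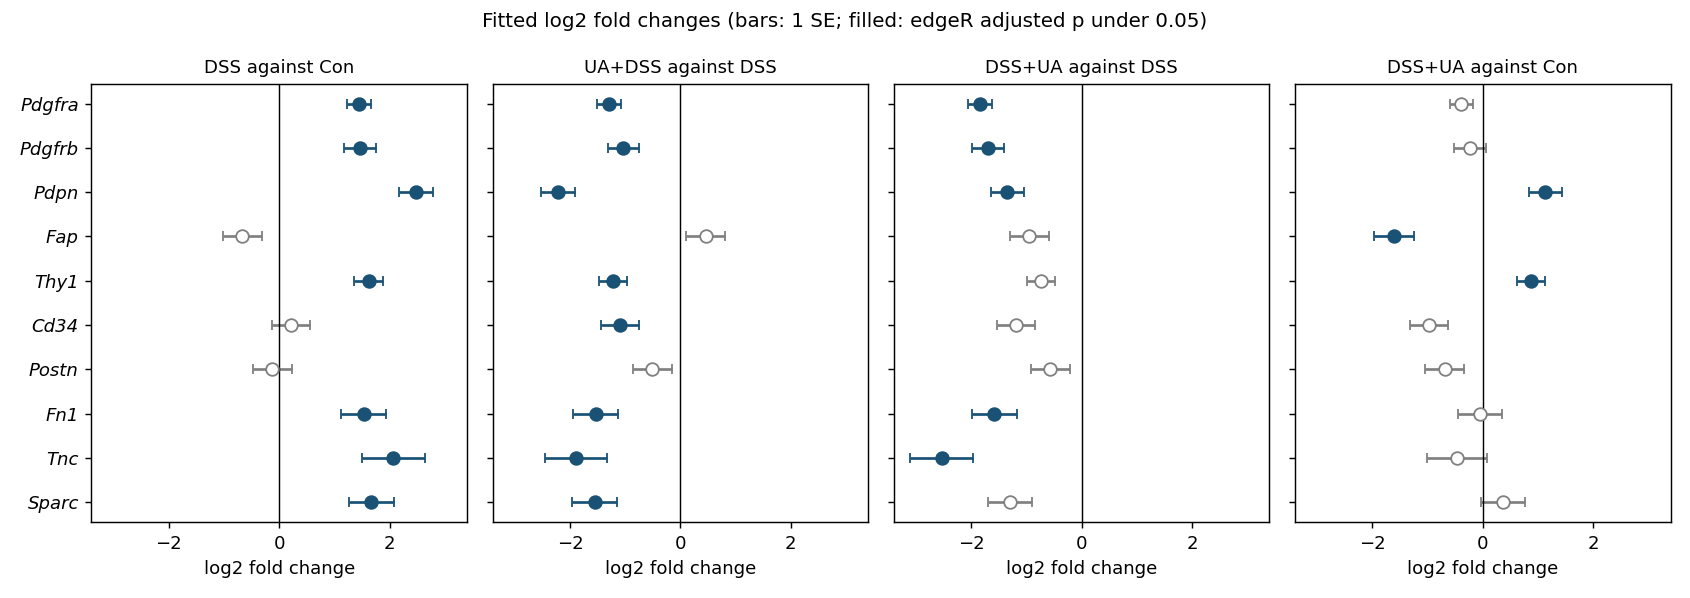
Fitted log2 fold change of the 10 genes (horizontal axis) in 4 comparisons, with bars of 1 SE and filled points where the edgeR adjusted p was under 0.05. In DSS against Con 7 points are filled and positive, from 1.45 for Pdgfra to 2.48 for Pdpn, in UA+DSS against DSS 8 are filled and negative, in DSS+UA against DSS 5 are filled and negative, and in DSS+UA against Con Pdpn, Thy1 and Fap are filled.

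Other genes of matrix and fibroblasts gave the setting of these changes. Of 40 other secreted matrix genes, collagens and laminins left out, 18 were raised in DSS and none was lowered, with a median log2 fold change of 1.36. The 18 include Spp1, so low in Con (0.0726 ± 0.0629 CPM) that it could pass the filter on low counts only through other groups. The proteoglycan versican (Vcan) rose from 22.6 ± 2.43 to 134 ± 33.6 CPM, the elastic fibre protein Efemp2 from 10.4 ± 1.36 to 35.8 ± 5.35 CPM, and Aebp1 from 13.7 ± 5.76 to 66.1 ± 15.9 CPM (SD, n = 3). Among 14 integrin chains and other receptors for these matrix proteins 7 were raised, with Itgav, the chain that pairs in vitronectin and fibronectin receptors, at 49.1 ± 1.53 CPM in Con and 123 ± 51.3 in DSS. The partner chain Itgb3 and Itgb8, which takes part in activation of latent TGF-beta, were raised too (log2 fold changes 1.91 and 2.74).

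The lists of fibroblast kinds differed in how many of their genes were raised. Of 12 genes that most fibroblasts express 7 were raised (median log2 fold change 1.24), among them the collagen VI chains Col6a1 and Col6a2 and decorin (Dcn, 238 ± 73.8 to 917 ± 251 CPM), which also stands in the list of secreted matrix. Of 10 genes of the Pdgfra-high telocytes 2 were raised, Bmp7 and Wnt5a, and the median was 0.32. Of 10 genes of Pdgfra-low fibroblasts near the crypt base 6 were raised, with complement C3 from 27.0 ± 11.7 to 770 ± 112 CPM. Of 8 genes of Cd34-positive adventitial fibroblasts 4 were raised and 1 lowered, and that list holds Fn1 itself. Of the 13 genes listed for inflammatory fibroblasts 2 did not pass the filter on low counts, and others were so low in Con (Il6 at 0.0363 ± 0.0315 CPM) that they could pass it only through the other groups, so the list is given by values and not by a count. Il33, an alarmin of stromal and epithelial cells, rose from 5.24 ± 3.33 to 85.7 ± 8.96 CPM and Il11 from 0.3 ± 0.206 to 55.3 ± 25.8 CPM. Of the 8 smooth muscle genes none was called by edgeR or limma-voom, 2 were lower by DESeq2, and 2 had an unadjusted p under 0.05 (median -1.0, summed level 1181 to 3767 CPM in Con and 740 to 1555 CPM in DSS). The epithelial list had 2 of 10 genes lowered, and its sums overlapped between Con (9564 to 23506 CPM) and DSS (5190 to 11049 CPM). Its part in the levels of the stromal genes was not tested.

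**Figure D3:**
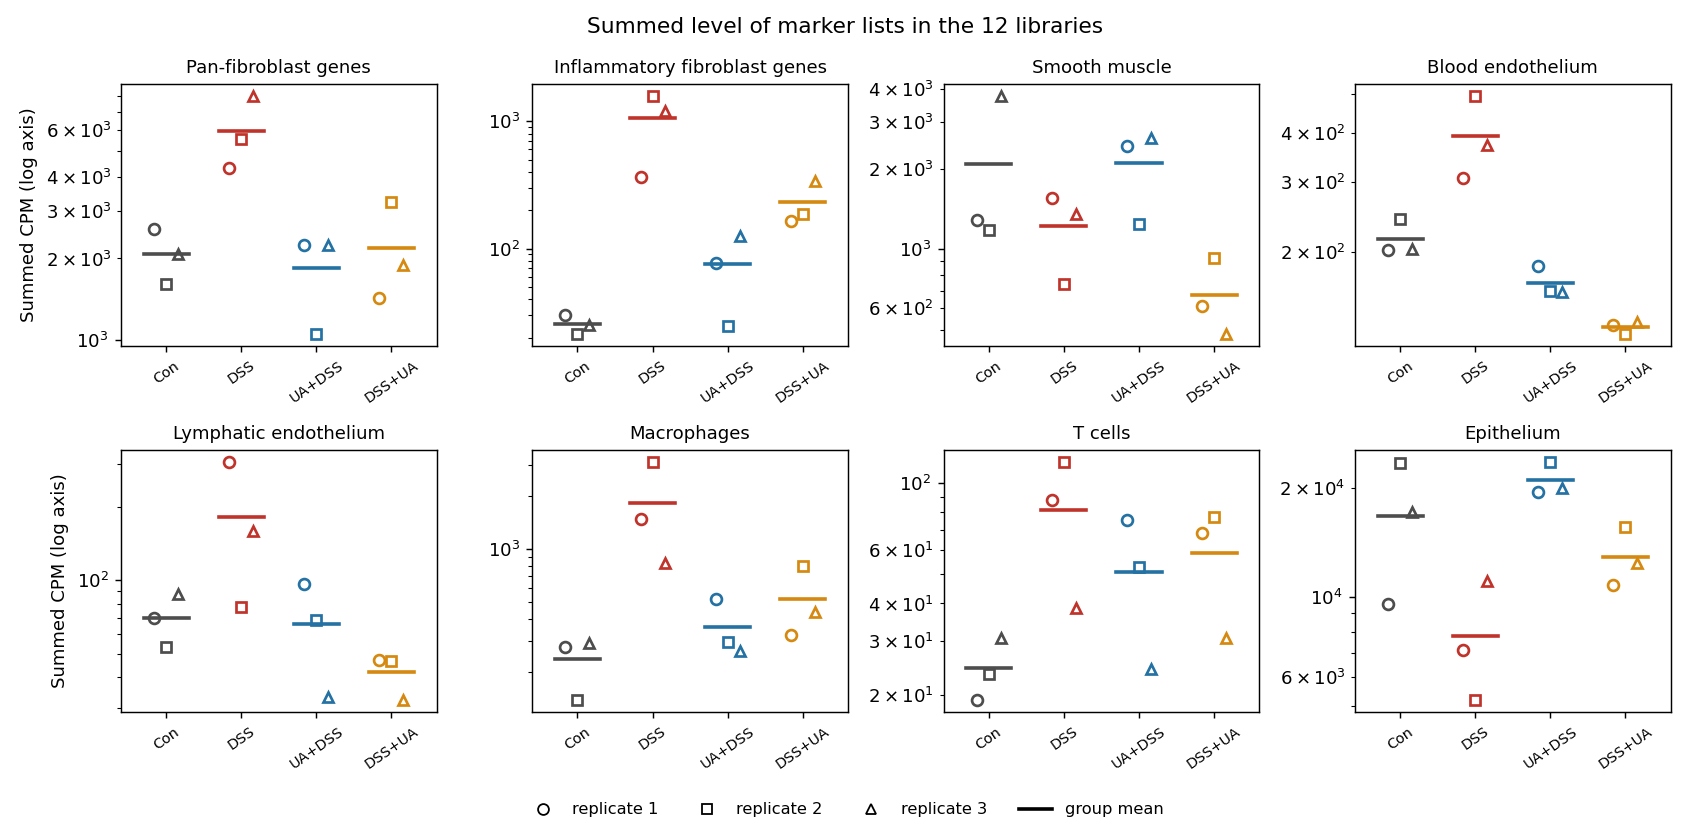
Summed CPM of 8 marker lists (vertical axes, logarithmic) in the 12 libraries by group, with circles, squares and triangles for replicates 1, 2 and 3 and a line at the group mean. The pan-fibroblast list sums to 1606 to 2562 CPM in Con and 4319 to 8046 CPM in DSS, while the epithelial list sums to 9564 to 23506 and 5190 to 11049 CPM.

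The RefSeq promoter table (GRCm38.p6) matched 6 of the 10 genes. The sequence is shown for Pdgfra, Pdpn and Tnc, the genes among these 6 that were raised in DSS and lowered in both UA groups, as the 250 bases before the RefSeq start, 5′ to 3′ on the strand of the gene. The windows are chr5:75152001-75152250 (plus strand) for Pdgfra, chr4:143299565-143299814 (minus strand) for Pdpn and chr4:64047016-64047265 (minus strand) for Tnc. Capitals mark the motifs found.
Pdgfra: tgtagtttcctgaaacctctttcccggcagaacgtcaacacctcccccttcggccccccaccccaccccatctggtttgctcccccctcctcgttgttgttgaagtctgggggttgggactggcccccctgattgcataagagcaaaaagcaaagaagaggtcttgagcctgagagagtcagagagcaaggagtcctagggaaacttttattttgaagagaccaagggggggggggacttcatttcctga
Pdpn: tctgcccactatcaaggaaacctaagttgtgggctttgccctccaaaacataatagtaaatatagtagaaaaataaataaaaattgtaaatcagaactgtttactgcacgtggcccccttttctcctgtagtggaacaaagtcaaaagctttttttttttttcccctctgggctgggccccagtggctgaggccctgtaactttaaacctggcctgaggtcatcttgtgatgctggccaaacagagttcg
Tnc: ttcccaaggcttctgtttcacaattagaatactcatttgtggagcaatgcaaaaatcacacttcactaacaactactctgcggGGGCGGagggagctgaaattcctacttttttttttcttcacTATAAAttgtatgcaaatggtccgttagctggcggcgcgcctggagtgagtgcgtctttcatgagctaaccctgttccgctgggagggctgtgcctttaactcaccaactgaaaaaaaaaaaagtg
The motifs searched, on both strands, were the AP-1 site TGANTCA, the GC box GGGCGG, the CCAAT box CCAAT, the TATA box TATAAA and the TEAD site GGAATG, which share no overlap in these windows. In the Tnc window the GC box began 167 bases and the TATA box 126 bases before the start. Among 27025 promoter windows of the same length, 33.0% held the GC box and 12.98% the TATA box, while 6.85% held the AP-1 site, 34.5% the CCAAT box and 12.6% the TEAD site. The windows of Pdgfra and Pdpn held none of the 5 motifs, nor did that of Cd34, which says only that these letters were not in these windows. The Sparc window lay with 238 of its 250 bases within annotated exons and the Postn window ended well before the annotated start of the gene, so neither is described further.

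UA+DSS against DSS asks which of the genes differ when UA was begun before DSS. 8 of the 10 genes were lowered in UA+DSS and none was raised, against 10.5% of all tested genes lowered and 8.21% raised. They were the 7 genes raised by DSS and Cd34, and Fap and Postn did not pass the test. The median log2 fold change of the 10 genes was -1.26, beside -0.02 over all tested genes. For 8 genes the UA+DSS libraries lay below all DSS libraries, where 21.7% of tested genes did so, with Postn among these 8 and Tnc not.

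Pdpn changed most in this comparison, with 13.7, 6.81 and 15.4 CPM in UA+DSS 1 to 3 against 51.9 to 60.6 CPM in DSS, which is 4.65-fold lower (log2 fold change -2.22, SE 0.30, edgeR adjusted p = 0.00717). UA+DSS 2 was the lowest of all 12 libraries for Pdpn. Pdgfra had 91.5, 61.2 and 67.3 CPM and was 2.45-fold lower than in DSS (log2 fold change -1.29, SE 0.22, adjusted p = 0.00944). Pdgfrb had 27.8, 31.2 and 40.7 CPM and was 2.05-fold lower (log2 fold change -1.03, SE 0.29, adjusted p = 0.0312), with UA+DSS 3 just below DSS 1. Thy1 had 19.5, 15.1 and 14.5 CPM and was 2.33-fold lower (log2 fold change -1.22, SE 0.25, adjusted p = 0.0135). Cd34, which DSS had not raised, had 32.8, 22.5 and 22.5 CPM in UA+DSS. These levels lay below every DSS and every Con library, and against DSS the gene was 2.13-fold lower (log2 fold change -1.09, SE 0.34, adjusted p = 0.0485).

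Among the matrix genes Fn1 had 225, 76.7 and 235 CPM in UA+DSS and was 2.90-fold lower than in DSS (log2 fold change -1.53, SE 0.41, edgeR adjusted p = 0.0274). Sparc had 278, 142 and 392 CPM and was 2.93-fold lower (log2 fold change -1.55, SE 0.41, adjusted p = 0.0260). UA+DSS 2 was again the lowest library for both. Tnc had 95.1, 49.7 and 142 CPM, and UA+DSS 3 was above DSS 1, although the mean was 3.71-fold lower (log2 fold change -1.89, SE 0.56, adjusted p = 0.0415). Postn had 249, 174 and 207 CPM, just below the lowest DSS library at 253 CPM, and did not pass the test (log2 fold change -0.51, SE 0.36, adjusted p = 0.346). Fap had 4.30, 6.19 and 3.78 CPM, overlapping DSS, with the opposite sign (log2 fold change 0.46, SE 0.35, adjusted p = 0.386).

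With the position score as a covariate none of the 8 genes was called in UA+DSS against DSS, with log2 fold changes of -1.31 for Pdgfra (edgeR adjusted p = 0.105), -1.68 for Pdpn (0.105) and -2.84 for Tnc (0.119), and in that fit 3 genes of all tested were called. Of the 8, Pdpn kept its call without any single library. Without UA+DSS 2 the calls of the other 7 were lost, with adjusted p of 0.0533 for Pdgfra, 0.0676 for Thy1, 0.0796 for Fn1, 0.0980 for Sparc, 0.115 for Pdgfrb, 0.147 for Tnc and 0.164 for Cd34, and without that library 183 genes of all tested were called. Fn1 was also lost without DSS 3 (0.0550), Sparc without DSS 2, DSS 3 or UA+DSS 1 (0.0521 to 0.0663), and Pdgfrb without DSS 2, DSS 3, UA+DSS 1 or UA+DSS 3 (0.0516 to 0.0955). Tnc was lost without Con 2, DSS 2, DSS 3, UA+DSS 1, UA+DSS 3, DSS+UA 1 or DSS+UA 3 (0.0557 to 0.104), and Cd34 without Con 2, Con 3, any DSS library, UA+DSS 1, UA+DSS 3 or DSS+UA 3 (0.0514 to 0.140). A fit of the UA+DSS and DSS libraries alone called 4 of the 10 genes (Pdgfra, Pdpn, Thy1 and Cd34). Without the filter on low counts Cd34 (0.0624) and Tnc (0.108) were lost, with upper-quartile factors Cd34 (0.0510) and with limma-voom Tnc (0.0507).

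**Figure D4:**
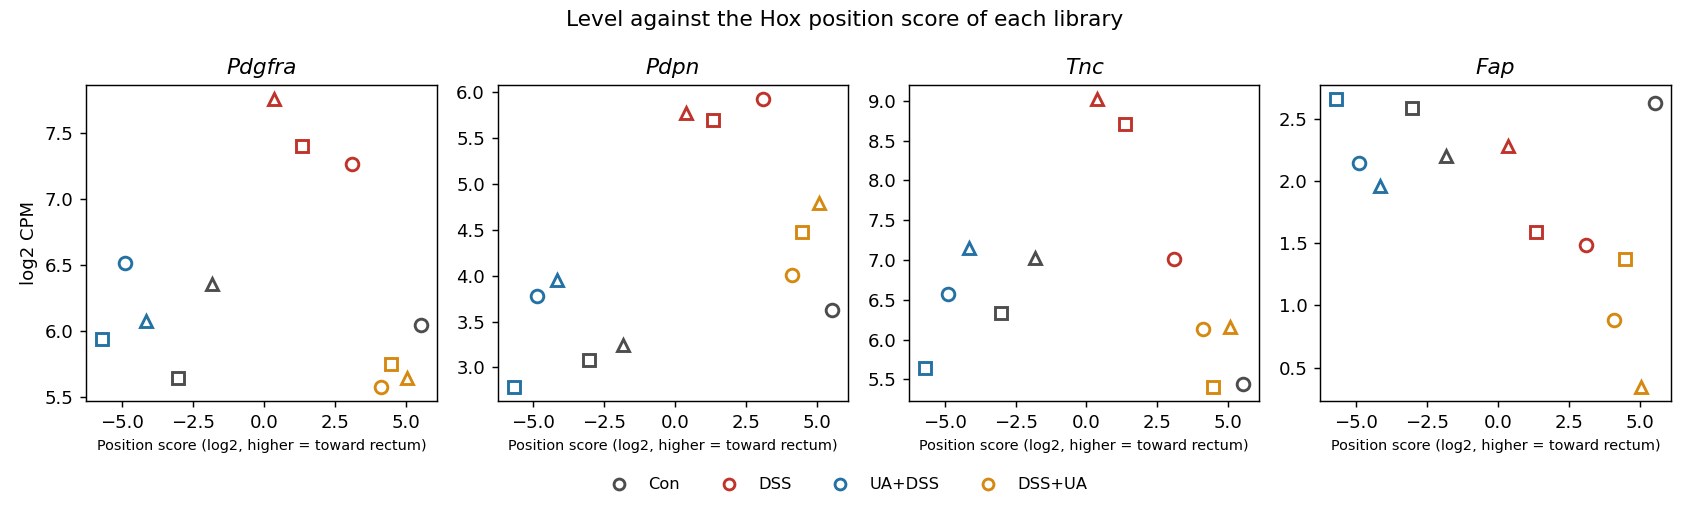
Log2 CPM of Pdgfra, Pdpn, Tnc and Fap (vertical axes) against the position score of each library (horizontal axis, log2 units, higher toward the rectum), with colours for the groups and circles, squares and triangles for replicates 1, 2 and 3. The UA+DSS libraries lie at scores of -5.70 to -4.16, the DSS libraries at 0.37 to 3.10 and the DSS+UA libraries at 4.11 to 5.06, so that no score is shared between these groups.

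The lists of other stromal genes moved unequally in UA+DSS against DSS. Of the 40 secreted matrix genes 17 were lowered (median -1.41) and of the 12 pan-fibroblast genes 8 (median -1.19), with Vcan at 23.9 ± 13.5 CPM and Dcn at 245 ± 48.5 CPM (SD, n = 3). The lowered pan-fibroblast genes include S100a4, so low in UA+DSS (0.149 ± 0.148 CPM) that it could pass the filter only through other groups. Spp1, among the lowered matrix genes, had 0.682 ± 0.470 CPM in UA+DSS. Of the telocyte genes 3 of 10 were lowered and 1 raised, of the crypt base fibroblast genes 5 of 10 were lowered, and of the adventitial genes 4 of 8 were lowered and 1 raised. All 8 smooth muscle genes had positive log2 fold changes (median 0.89), but none was called by edgeR, DESeq2 or limma-voom and 0 had an unadjusted p under 0.05. Of the matrix receptors 5 of 14 were lowered, and Il33 of the inflammatory list was lowered to 9.72 ± 2.94 CPM. Cells that share a member gene gave 1 of 6 mural, 3 of 6 lymphatic, 6 of 9 macrophage, 1 of 8 T-cell and 7 of 8 blood endothelial genes lowered. The epithelial list summed to 19480 to 23661 CPM in UA+DSS against 5190 to 11049 CPM in DSS, with 3 of 10 genes raised, and the part of these cells in the lower levels of the 10 genes was not tested. Pdgfb, the ligand of Pdgfrb, was lowered to 9.42 ± 2.31 CPM (log2 fold change -0.83, edgeR adjusted p = 0.0404).

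DSS+UA against DSS asks the same of UA begun after DSS, and it shares the DSS libraries with the comparison above. 5 of the 10 genes were lowered and none was raised, against 5% of all tested genes lowered and 2.54% raised. The lowered genes were both PDGF receptors, Pdpn, Fn1 and Tnc. The other 5 had negative log2 fold changes that did not pass the test. For 9 of the 10 genes, all but Postn, the DSS+UA libraries lay below all DSS libraries, where 16.4% of tested genes did so.

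Pdgfra had 47.6, 53.7 and 49.8 CPM in DSS+UA 1 to 3, a narrow range, and was 3.57-fold lower than in DSS (log2 fold change -1.83, SE 0.22, edgeR adjusted p = 0.00387). Pdgfrb had 19.3, 16.8 and 27.2 CPM and was 3.22-fold lower (log2 fold change -1.69, SE 0.29, adjusted p = 0.0146). Both receptors were at levels within or below the range of Con. Pdpn had 15.96, 22.1 and 27.7 CPM, between Con and DSS without overlap with either, and was 2.54-fold lower than in DSS (log2 fold change -1.35, SE 0.29, adjusted p = 0.0279). Thy1 lay between Con and DSS in the same way, with 22.7, 27.5 and 18.5 CPM, but its difference from DSS did not pass the test (log2 fold change -0.74, SE 0.25, adjusted p = 0.0816).

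Tnc had 69.9, 42.4 and 71.1 CPM, all below DSS 1, and was 5.81-fold lower than in DSS (log2 fold change -2.54, SE 0.58, edgeR adjusted p = 0.0332). In 2.25% of tested genes the change was larger in size. Fn1 had 164, 222 and 134 CPM and was 2.99-fold lower (log2 fold change -1.58, SE 0.41, adjusted p = 0.0432). Sparc had 205, 465 and 296 CPM, with DSS+UA 2 just below DSS 1, and did not pass the test (log2 fold change -1.30, SE 0.40, adjusted p = 0.0669). DSS+UA 2 was also the highest of its group for Cd34, with 15.96, 40.4 and 16.4 CPM (log2 fold change -1.19, SE 0.35, adjusted p = 0.0572), and for Postn, with 117, 331 and 156 CPM (log2 fold change -0.57, SE 0.36, adjusted p = 0.306). Without that library the log2 fold change of Cd34 was -1.81 (adjusted p = 0.0217) and that of Postn -1.17. Fap had 1.74, 2.47 and 1.16 CPM, from 21 to 40 counts, below every other library of the study, and against DSS its log2 fold change was -0.94 (SE 0.36, adjusted p = 0.111).

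With the position score as a covariate Pdgfra (edgeR adjusted p = 0.0145) and Pdpn (0.0396) were called in DSS+UA against DSS, and Pdgfrb (0.0529), Fn1 (0.0759) and Tnc (0.0917) were not. The log2 fold changes of these 3 were -1.66, -1.74 and -1.97 in that fit, against -1.69, -1.58 and -2.54 without the score, and the genes called over all tested went from 1331 to 199. Pdgfra kept its call without any single library. Pdgfrb lost it without DSS+UA 2 (0.0594) or DSS+UA 3 (0.0547), and Pdpn without DSS 1, DSS 2 or any DSS+UA library (0.0506 to 0.0929). Tnc lost it without DSS 2, DSS 3, UA+DSS 1 or any DSS+UA library (0.0544 to 0.118), and Fn1 without Con 3, UA+DSS 1, UA+DSS 3 or any DSS or DSS+UA library (0.0513 to 0.149). Over all tested genes 142 were called without DSS+UA 2 and 25 without DSS+UA 3. Sparc was called without DSS 1 (0.0493). DESeq2 called 8 of the 10 genes, Thy1 (0.0374), Cd34 (0.0142) and Sparc (0.0157) in addition. Cd34 was also called with library size alone as scaling (0.0318), with limma-voom (0.0384) and with at least 10 counts in every library (0.0462), and Sparc with library size alone (0.0453). Without the filter on low counts 3 genes were called, since Fn1 (0.0591) and Tnc (0.0739) were lost. Fn1 was lost with limma-voom (0.0572) and Tnc in a fit of the DSS+UA and DSS libraries alone (0.0590).

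Of the secreted matrix genes 16 of 40 were lowered in DSS+UA against DSS, of the matrix receptors 5 of 14 and of the pan-fibroblast genes 3 of 12. Aebp1 had 17.7 ± 3.82 CPM and Dcn 293 ± 108 CPM, and both were lowered (log2 fold changes -1.90 and -1.65). Of the 4 PDGF ligand genes 1 was lowered here as well, Pdgfb at 7.81 ± 0.481 CPM (log2 fold change -1.10, edgeR adjusted p = 0.0314). Of the mural genes 4 of 6 were lowered, of the blood endothelial genes 7 of 8, of the lymphatic genes 3 of 6, and of the macrophage genes 2 of 9. Of the 8 T-cell genes none was called by edgeR, DESeq2 or limma-voom, and 0 had an unadjusted p under 0.05. The mural list summed to 120 to 219 CPM in DSS+UA against 347 to 515 CPM in DSS, and the endothelial list to 124 to 133 against 308 to 496 CPM. The part of these cells in the levels of Pdgfrb, Pdpn and Cd34 was not tested.

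The UA groups were also set against Con, to ask whether the genes stood at the level of mice without DSS. Position scores of the UA+DSS libraries (-5.70 to -4.16) lay below every Con library, so treatment and position cannot be told apart there. The DSS+UA scores (4.11 to 5.06) lay within the range of Con only through Con 1 (5.53). Con 2 (-3.03) and Con 3 (-1.83) lay well below them, so position differed between DSS+UA and these Con libraries too. In UA+DSS against Con no gene of the 10 was called by edgeR, DESeq2 or limma-voom. Of all tested genes 0.00566% were raised and 0% lowered by edgeR, while DESeq2 called 374 genes and limma-voom 0. Cd34 was the gene with an unadjusted p under 0.05, as 12.1% of tested genes had (log2 fold change -0.87, SE 0.34, adjusted p = 0.360). The UA+DSS libraries lay below all Con libraries for Cd34 and Postn, where 11% of tested genes did so. The log2 fold changes of the other 8 genes ran from -0.20 for Fap to 0.43 for Pdgfrb, with SE of 0.21 to 0.55, so that differences of that size were within the spread between libraries. A fit with the position score as a covariate called none of the 10, and 0 genes of all tested. Log2 fold changes of the 10 genes in that fit ran from -0.63 for Cd34 to 0.70 for Pdpn.

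In DSS+UA against Con 2 of the 10 genes were raised and 1 was lowered, against 9.13% and 8.95% of all tested genes. Pdpn was 2.19-fold higher (21.9 ± 5.86 against 9.98 ± 2.04 CPM, SD, n = 3, log2 fold change 1.13, SE 0.30, edgeR adjusted p = 0.0251). Thy1 was 1.84-fold higher (22.9 ± 4.50 against 12.4 ± 4.05 CPM, log2 fold change 0.88, SE 0.25, adjusted p = 0.0351). Fap was 3.05-fold lower (1.79 ± 0.657 against 5.47 ± 0.855 CPM, log2 fold change -1.61, SE 0.36, adjusted p = 0.0152). None of these overlapped between the groups, and Cd34 lay below Con as well, so that 2 genes stood above and 2 below without overlap (19.8% and 19.2% of tested genes). Cd34 did not pass the test (24.3 ± 14.0 against 47.5 ± 10.04 CPM, log2 fold change -0.97, SE 0.34, adjusted p = 0.0701), and the matrix genes Fn1, Tnc, Sparc and Postn had log2 fold changes of -0.05, -0.47, 0.37 and -0.69 with adjusted p of 0.186 to 0.938. In the same comparison 2 of 8 T-cell genes were raised.

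With the position score as a covariate Fap was called in DSS+UA against Con (edgeR adjusted p = 0.0404), and Pdpn (0.162) and Thy1 (0.170) were not, with log2 fold changes of 0.78 and 0.67 and with 2176 genes called over all tested in place of 3193. Fap lost its call without DSS+UA 3 (0.0674). Pdpn lost it without Con 2, Con 3, DSS+UA 2 or DSS+UA 3 (0.0554 to 0.0956), and Thy1 without Con 2 or any DSS+UA library (0.0549 to 0.0943). Thy1 was also lost with library size alone (0.0702) or upper-quartile factors (0.0590) as scaling and in a fit of the DSS+UA and Con libraries alone (0.0845). Without DSS+UA 2, Cd34 (0.00940) and Postn (0.0262) were called lower than in Con, and Cd34 was called with library size alone (0.0423), limma-voom (0.0396) and DESeq2 (0.0401).

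Early and late UA were compared directly, UA+DSS against DSS+UA, groups that differ in both the start and the days of UA. Fap was the gene called, 2.65-fold higher in UA+DSS (4.75 ± 1.27 against 1.79 ± 0.657 CPM, SD, n = 3, log2 fold change 1.41, SE 0.36, edgeR adjusted p = 0.0256), where 7.54% of all tested genes were higher and 9.23% lower. Every UA+DSS library was above every DSS+UA library for Fap. Pdgfra (log2 fold change 0.54, adjusted p = 0.0996) and Pdgfrb (0.66, adjusted p = 0.132) were higher and Pdpn (-0.87, adjusted p = 0.0624) lower in every UA+DSS library than in every DSS+UA library, without passing the test. With Fap, 3 genes were higher and 1 lower without overlap (22.7% and 22.5% of tested genes). The other 6 genes overlapped between the UA groups. With the position score as a covariate the log2 fold change of Fap was 1.24 and the call was lost (adjusted p = 0.457), in a fit that called 0 genes of all tested. The call was also lost without UA+DSS 1 (0.0548), UA+DSS 2 (0.107), DSS+UA 1 (0.0728) or DSS+UA 3 (0.102). Fap was counted with 67 to 99 reads in the UA+DSS libraries and 21 to 40 in the DSS+UA libraries. DESeq2 called Pdpn in addition (0.0309).

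The genes differed in how much of their variation lay between the groups. On the log2 CPM scale the group means held 90.7% of the variance of Pdgfra over the 12 libraries, 90.0% of that of Pdpn and 84.2% of that of Thy1, where the median over all tested genes was 58.0%. Postn had 42.4%, below that median. Tnc varied most between libraries of the same group, with a within-group SD of 0.80 log2 units, against 0.27 for Pdgfra. Its highest library, DSS 3, had 12.2 times the CPM of its lowest, DSS+UA 2. For Pdgfra, Pdgfrb, Pdpn, Thy1, Fn1 and Sparc the 3 highest of the 12 libraries were the DSS libraries, and for Postn the highest was Con 1.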

How the data were processed

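Total RNA of colon tissue was sequenced in 12 libraries, 3 in each of 4 groups taken from the sample titles. The authors inspected reads with FastQC, mapped them to GRCm38 and took gene counts from Hisat2, and the submitters' processing notes also name Cuffdiff. The deposited files hold whole-number read counts per Ensembl gene, without normalization. Versions, annotation release, strand setting and the treatment of multi-mapping reads are not given in the sources used. The labels name Trizol for the RNA where the methods name an RNeasy kit.

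Genes were named and placed with the GENCODE annotation of GRCm38. edgeR 4.0.16 in R 4.3.3 kept 17658 of 54532 genes (99.8% of counts) by filterByExpr. After TMM scaling, the 12 libraries entered a single quasi-likelihood fit with robust estimation (biological coefficient of variation 0.352). Tables were made in Python 3.11.15 with pandas 2.3.3 and numpy 2.4.6, and log2 CPM used a prior count of 2. On simulated counts the fit recovered the median size of planted changes. The smaller planted changes were not called, and the larger only in part. Far fewer genes were planted as changed than were called in DSS against Con, so the simulation does not measure how often changes in these data are called. Library totals of 15566216 to 19498383 counts set the precision, and library pairs within a group differed beyond sampling noise (chi-square per degree of freedom 20.9 to 227).

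The 10 genes, the marker lists and the alternatives were chosen with earlier results of these data known. The genes named are the 10, the 3 of each list with the smallest p in DSS against Con, and the 2 genes nearest to each of the 10. Il6, Spp1 and S100a4 are named besides for their low levels, and Ezr and Clec1b because they were not among the raised partners. Of the listed genes Chi3l1 was not matched. Alternatives were DESeq2 1.42.0, limma-voom (limma 3.58.1), other scaling and filters, fits restricted to the compared groups, a replicate block, the position score as a covariate and leaving out each library.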

Additional observations from a re-analysis of the deposited data

Results flagged for a closer look

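Against DSS, the log2 fold change of Fap was 0.46 in UA+DSS and -0.94 in DSS+UA, neither past the threshold. The signs were opposite, but the UA+DSS libraries overlapped DSS. The difference between these changes, tested in the same edgeR fit, was 1.41 (SE 0.36, adjusted p = 0.0256), and every UA+DSS library was above every DSS+UA library. Fap was the 1 gene of the 10 called there, where 7.54% of all tested genes were higher and 9.23% lower. Over the alternatives the adjusted p ran from 0.00194 to 0.457. The highest of these was that with the position score as a covariate, where the log2 difference was 1.24 and 0 genes of all tested were called, and the part of position along the colon cannot be told apart from that of treatment.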

How the results depend on the processing

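The number of the 10 genes called stayed at 6 or 7 for DSS against Con and at 0 for UA+DSS against Con under every alternative that kept all libraries. For UA+DSS against DSS (8 genes) it was 0 with the position score and 4 in a fit of the groups compared, while the genes called over all tested went from 3300 to 3 and 2072. For DSS+UA against DSS (5 genes) it was 3 without the filter, 2 with the position score and 8 with DESeq2, while over all tested genes it went from 1331 to 882, 199 and 3107. For DSS+UA against Con (3 genes) it was 1 with the position score (over all genes 2176 in place of 3193), and for UA+DSS against DSS+UA (1 gene) it was 0 with the position score and 2 with DESeq2 (over all genes 0 and 4349 in place of 2961). Why these counts moved was not tested. Leaving out each library in turn, the counts ran from 5 to 7 for DSS against Con, 1 to 8 for UA+DSS against DSS, 1 to 5 for DSS+UA against DSS, 0 to 3 for DSS+UA against Con and 0 to 1 for UA+DSS against DSS+UA. Over all tested genes these fits called 2894 to 4708, 183 to 4112, 25 to 1825, 1062 to 4057 and 560 to 3893, respectively. Such a fit assumes that a group reduced to fewer libraries varies like the others. With library size alone as scaling the median over all tested genes of the log2 fold change was -0.11 instead of 0.02 in DSS+UA against DSS and -0.12 instead of -0.02 in UA+DSS against DSS. Of the called genes 448 of 1331 were raised in DSS+UA against DSS, and 140 of 1143 with that scaling, and in DSS+UA against Con 1613 of 3193 and 1035 of 2592 (1192 of 3072 with upper-quartile factors).

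Deviations from the group means correlated over 0.1 in 5 of 18 pairs of same-numbered libraries of different groups (range -0.216 to 0.187). Other pairs of libraries ran from -0.289 to 0.240. These values cannot show whether same-numbered libraries shared a batch or handling. With the replicate block the counts of called genes were 7 for DSS against Con, 7 for UA+DSS against DSS, 4 for DSS+UA against DSS, 0 for UA+DSS against Con, 3 for DSS+UA against Con and 1 for UA+DSS against DSS+UA.

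No called change turned its sign. Among uncalled ones, in UA+DSS against Con the log2 fold change of Fn1 became 0.0082 without the filter and 0.25 with the position score, that of Tnc -0.53 with the position score and that of Sparc -0.0050 with limma-voom. In DSS+UA against Con that of Fn1 became 0.056 with the replicate block and that of Tnc 0.34 with the position score. In UA+DSS against DSS+UA that of Thy1 became 0.0031 and that of Tnc -0.86 with the position score, and that of Fn1 -0.097 with limma-voom and -0.092 with the replicate block. Without single libraries, Postn ran from -0.34 to 0.11 in DSS against Con. In UA+DSS against Con Pdgfra ran from -0.029 to 0.33, Fn1 from -0.26 to 0.37, Tnc from -0.23 to 0.62 and Sparc from -0.25 to 0.43, and in DSS+UA against Con Fn1 ran from -0.29 to 0.12. In UA+DSS against DSS+UA Cd34 ran from -0.15 to 0.66, Postn from -0.23 to 0.60, Fn1 from -0.22 to 0.41 and Sparc from -0.64 to 0.095.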

Other observations

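Each of the 10 genes was also set beside the genes whose pattern over the 12 libraries was most like it, as the mean absolute difference in log2 CPM after each gene was centred on its own mean, among 12314 other genes. Nearest to Pdgfra were Axl (0.13 log2 units), a receptor tyrosine kinase, and Lix1l (0.14), where the median over the candidates was 0.70. Axl had 50.03 CPM in Con, 122 in DSS, 57.3 in UA+DSS and 45.5 in DSS+UA. Nearest to Pdgfrb were Bmp1, the procollagen C-proteinase, and Parvb, and nearest to Pdpn were Sod3, the extracellular superoxide dismutase, and Tspan4. Nearest to Thy1 were Zfp385a (0.13) and Abcg1. For the matrix genes the nearest were Loxl1 and Serpinf1 to Fn1, Serpinh1, a collagen chaperone, and Fstl1 to Sparc, Serpine2 and the basement membrane collagen Col4a1 to Tnc, and Sept4 and Lrrc17 to Postn. Cd34 stood nearest to Bmp4 (0.21) and Fkbp7, and Fap to Fbxl20 and Agt, a gene of the telocyte list. Bmp4 had 46.8 CPM in Con, 54.7 in DSS, 25.1 in UA+DSS and 33.0 in DSS+UA.

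Among the 10 genes themselves the closest pair by this measure was Cd34 and Postn (0.22 log2 units), followed by Pdgfra with Fn1 (0.27) and with Pdgfrb (0.28). The farthest pair was Pdpn and Fap (1.37). These are descriptions over libraries that share depth, group and position along the colon.

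The remaining marker lists gave the following values. The mesothelial gene Msln had 0.422 ± 0.253 CPM in Con and 18.9 ± 24.1 in DSS (SD, n = 3), and the mesothelial list summed to 2.02 to 5.19 CPM in Con and 13.2 to 55.5 in DSS. Of 4 tested adipocyte genes none was called by edgeR in the comparisons of DSS with Con or of a UA group with DSS, where 1 had an unadjusted p under 0.05 in DSS+UA against DSS and 1 was called lower there by DESeq2. Of the smooth muscle genes 4 of 8 were lower in DSS+UA than in Con, with Synpo2 at 90.2 ± 80.0 CPM in Con and 17.7 ± 3.97 in DSS+UA. The smooth muscle list summed to 481 to 925 CPM in DSS+UA and 1243 to 2603 in UA+DSS. Ly6c1, listed for adventitial fibroblasts and also expressed by endothelium and leukocytes, had 50.5 ± 8.34 CPM in Con, 176 ± 78.9 in DSS, 48.3 ± 4.82 in UA+DSS and 240 ± 17.5 in DSS+UA. Its level in UA+DSS was lower than in DSS (log2 fold change -1.87, edgeR adjusted p = 0.00725), while its level in DSS+UA was not (0.44, adjusted p = 0.283).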
